A study of Mus musculus with 14 samples.

Results

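Rnf144a, Adi1, Rrm2, Klf11, Adam17, Prkar2b and Lpin1 are 7 genes that lie near Id2 on mouse chromosome 12. They were chosen because their array signal differed between Id2-deficient and Id2-sufficient KLRG1lo CD8+ T cells, so their differences in that comparison are given as descriptions, with no test. They are 7 of the 19937 genes named on the array. All 7 passed the filter on low signal that left 14438 genes for testing, and each is read by 1 probe set.

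The arrays held RNA of effector CD8+ T cells sorted by flow cytometry on day 6 of infection with Listeria carrying ovalbumin. Donor cells came from fetal liver chimeras, were placed in congenic recipient mice the day before infection, and are labelled OT-I (an ovalbumin-specific T cell receptor) in every group but Id2KOBimKO, whose label leaves the receptor out. KLRG1 is a surface lectin that marks short-lived effector cells. Id2KO KLRG1lo cells (2 arrays) lacked Id2, Id2KOBimKO KLRG1lo cells (2 arrays) lacked Id2 and the cell death protein Bim, BimKO KLRG1lo cells (2 arrays) lacked Bim alone, and the wild type gave KLRG1hi (3 arrays) and KLRG1lo (5 arrays) cells. All are labelled C57BL/6J, with no age or sex given. No label says that replicates came from separate animals, so p-values measure the spread between these arrays, which may be technical.

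Id2 is a helix-loop-helix protein without a DNA-binding region. It pairs with E proteins and keeps them off their CANNTG sites (E-boxes), and CD8+ effector cells depend on it for their numbers and for KLRG1hi differentiation. A gene targeted in embryonic stem cells also carries with it the chromosome around it, which may keep the stem cells' strain sequence after backcrossing, and a sequence difference can change either a gene's expression or how its RNA binds an array probe. The strain of the stem cells, the extent of any such segment and the probe sequences are not given in the sources used here. Each Id2-deficient array carries both the loss of Id2 and whatever DNA lies beside the targeted allele, so the effects of the 2 cannot be told apart in this design.

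The 7 genes lie on both sides of Id2. Counted in places, the order of protein-coding genes in the RefSeq table of assembly GRCm38.p6, Lpin1 lies 61 places before Id2, Adam17 23, Klf11 5 and Rrm2 3, while Rnf144a is the next gene after Id2, Adi1 lies 10 places after it and Prkar2b 33. RefSeq promoter entries (250 bases before to 50 after the start) matched 6 of the 7 genes, and Adi1 is named only. Each of the 6 genes had a window with at least 1 CANNTG, a palindromic pattern read the same on both strands. Prkar2b has 2 windows, and the second held 0. Counted by promoter and not by gene, 72.3% of the 32851 mouse promoters in the table held the pattern. CAGCTG, 1 of its spellings, was found in the windows of Rrm2 and Adam17 and in that of Id2, against 16.3% of all promoters. CAGGTG or its reverse complement CACCTG was found in the first window of Prkar2b, against 20.2%. The 250 bases before the start are shown for the gene next to Id2 and for 1 lower and 1 higher gene further away, 5′ to 3′ on the gene's own strand and with CANNTG in capitals. They lie at chr12:26415263-26415512 on the minus strand (Rnf144a), chr12:24651121-24651370 on the plus strand (Klf11) and chr12:21373633-21373882 on the minus strand (Adam17) of GRCm38.p6.
Rnf144a: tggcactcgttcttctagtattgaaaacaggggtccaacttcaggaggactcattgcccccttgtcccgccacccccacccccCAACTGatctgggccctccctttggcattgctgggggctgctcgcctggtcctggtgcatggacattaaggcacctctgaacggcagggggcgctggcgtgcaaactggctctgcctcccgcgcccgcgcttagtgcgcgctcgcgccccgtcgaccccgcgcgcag
Klf11: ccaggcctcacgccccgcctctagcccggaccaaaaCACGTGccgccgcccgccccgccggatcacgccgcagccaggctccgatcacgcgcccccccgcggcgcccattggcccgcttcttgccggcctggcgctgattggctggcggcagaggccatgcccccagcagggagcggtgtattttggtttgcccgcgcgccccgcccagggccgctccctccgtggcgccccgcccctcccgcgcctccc
Adam17: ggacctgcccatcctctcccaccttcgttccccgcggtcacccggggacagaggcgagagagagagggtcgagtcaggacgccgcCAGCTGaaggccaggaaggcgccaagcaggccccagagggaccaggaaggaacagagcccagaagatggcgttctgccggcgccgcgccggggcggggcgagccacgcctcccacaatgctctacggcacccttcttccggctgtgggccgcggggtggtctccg
The capitals begin 167 bases before the start of Rnf144a (CAACTG), 214 before that of Klf11 (CACGTG) and 165 before that of Adam17 (CAGCTG). These are matches of letters and show nothing about binding.

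The labels were checked on the same arrays. Id2 had a log2 signal of 9.88 and 9.73 on the Id2KO arrays and 9.84 and 9.64 on the Id2KOBimKO arrays, against 10.75 and 10.93 on the BimKO arrays and 10.78 to 11.16 on the WT KLRG1lo arrays. Signal was therefore lower on all 4 Id2-deficient arrays, by 2.16-fold on average, but did not reach the level of probe sets with no gene (5.01 to 5.39). The sources used here do not say whether the probe set lies inside the deleted part. Bcl2l11, the gene of Bim, averaged 7.51 ± 0.21 on the BimKO arrays (SD, n = 2) and 7.60 ± 0.19 on the WT KLRG1lo arrays (SD, n = 5), so the Bim label could not be checked from it, and BimKO and Id2KOBimKO are used here as the labels give them. Klrg1 averaged 11.04 ± 0.50 in KLRG1hi cells (n = 3) and 6.27 ± 0.29 in WT KLRG1lo cells. Of 6 genes of E and Id proteins tested, 0 passed an adjusted p of 0.05 in the mean Id2 effect (the average of Id2KO minus WT KLRG1lo and Id2KOBimKO minus BimKO, in log2), against 0.18% of all tested genes, and their median was -0.02, against 0.02 over all genes. The same 0.18% and 0.02 over all genes hold beside the count and median of each gene list that follows for this effect. Among the 6, Id3 was at 1.18 (limma adjusted p = 0.0811) and Tcf12 at 0.28. The Id2KO arrays also differed from the rest in sex-linked transcripts, with Xist at 4.73 ± 0.37 on the Id2KO arrays and a mean between 8.90 and 10.11 in the other 4 groups. Eif2s3y averaged 7.79 ± 0.57 on the Id2KO arrays, against 3.04 to 3.45 elsewhere, while the Id2KOBimKO arrays had the levels of the other groups. In Id2KO minus WT KLRG1lo, loss of Id2 and this sex-linked difference therefore cannot be told apart. The mean Id2 effect averages that contrast in, and the 26 genes called in it include Eif2s3y, Uty, Xist and Kdm5d.

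Across both Bim backgrounds, 5 of the 7 genes had lower signal and 2, Adi1 and Adam17, had higher signal in Id2-deficient cells. Every Id2KO array lay outside the range of the WT KLRG1lo arrays for 7 of 7 genes (28.5% of all tested genes did), and every Id2KOBimKO array lay outside the BimKO range for 7 of 7 (29.7% of all). With the pairs joined, the 4 Id2-deficient arrays did not overlap the 7 Id2-sufficient KLRG1lo arrays for 6 genes, all but Lpin1, against 2.44% of all tested genes. With the 3 KLRG1hi arrays added to the Id2-sufficient side, 4 genes (Adi1, Rrm2, Klf11 and Prkar2b) did not overlap, against 1.32% of all. These counts follow from how the genes were chosen. The median of the mean Id2 effect was -0.50 over the 7 genes and 0.02 over all tested genes, and the median size 0.61 and 0.15.

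**Figure D1:**
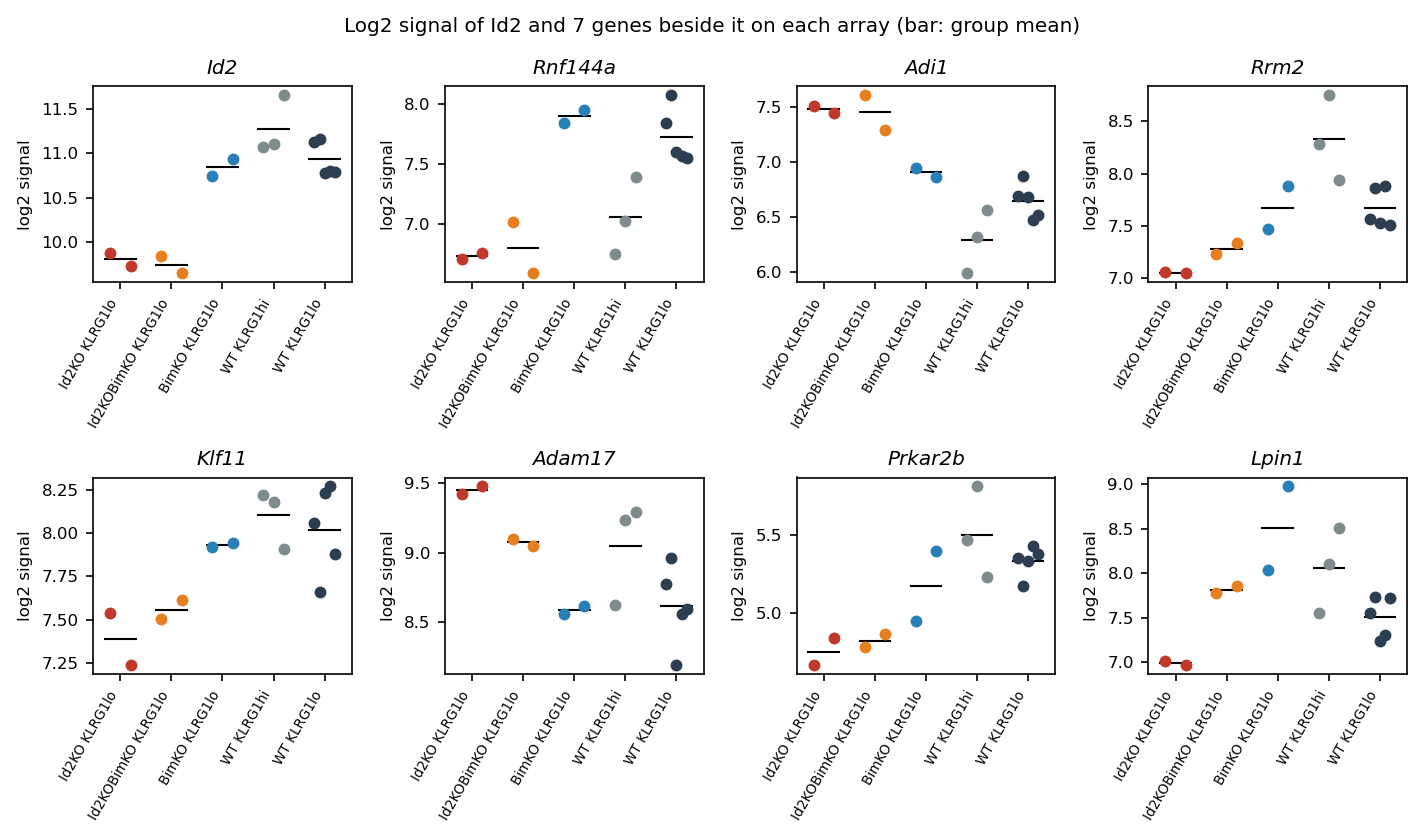
Log2 signal (vertical axis) of Id2 and the 7 genes on each of the 14 arrays, 1 panel a gene, with groups along the horizontal axis, a point for each array and a bar at the group mean. The 4 Id2-deficient arrays lie below the 7 Id2-sufficient KLRG1lo arrays for Id2, Rnf144a, Rrm2, Klf11 and Prkar2b, above them for Adi1 and Adam17, and overlap them for Lpin1.

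Rnf144a, next to Id2, encodes a ubiquitin ligase of the RBR (RING-between-RING) type. Its log2 signal was 6.71 and 6.76 on the Id2KO arrays and 7.02 and 6.60 on the Id2KOBimKO arrays, against 7.84 and 7.95 on the BimKO arrays and 7.84, 8.07, 7.60, 7.57 and 7.55 on the WT KLRG1lo arrays. WT KLRG1hi cells had 6.76, 7.02 and 7.40. All Id2-deficient arrays were low, and the KLRG1hi arrays overlapped them and lay below every KLRG1lo array that retained Id2. The difference was -0.99 for Id2KO minus WT (SE 0.20) and -1.09 for Id2KOBimKO minus BimKO (SE 0.23), a mean effect of -1.04 (SE 0.15) or a 2.05-fold lower signal. Of the 10 other RBR-type ligases tested, 0 passed the test of the mean Id2 effect and their median was 0.20. Rnf19b (0.40) and Rbck1 (0.28) had the largest values of these.

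Adi1 encodes the dioxygenase of the methionine salvage pathway, which recovers methionine from the by-product of polyamine synthesis. Its signal was 7.52 and 7.45 on the Id2KO arrays and 7.61 and 7.29 on the Id2KOBimKO arrays, against 6.95 and 6.87 on the BimKO arrays and 6.69, 6.87, 6.68, 6.47 and 6.52 on the WT KLRG1lo arrays. In WT KLRG1hi cells it was 5.98, 6.31 and 6.56. The 4 Id2-deficient arrays stood above all 10 others, and the KLRG1hi arrays were at the low end. The differences were 0.84 (SE 0.18) for Id2KO minus WT and 0.55 (SE 0.21) for Id2KOBimKO minus BimKO, a mean effect of 0.69 (SE 0.14) or 1.61-fold. Of 12 other genes of methionine salvage and polyamine synthesis, 8 were tested, 0 passed, and all 8 had a positive mean effect with a median of 0.14, among them Got1 (0.41), an aminotransferase, and Mtap (0.28), which starts the salvage. In Id2KO minus WT KLRG1lo 8 of 8 were positive with a median of 0.36, while in Id2KOBimKO minus BimKO 5 were positive and 3 negative with a median of 0.04, against 0.03 over all genes in either.

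Rrm2 encodes the small subunit of ribonucleotide reductase, the enzyme that makes deoxyribonucleotides for DNA synthesis. Signal was 7.05 and 7.04 on the Id2KO arrays and 7.23 and 7.33 on the Id2KOBimKO arrays, against 7.46 and 7.88 on the BimKO arrays and 7.57, 7.86, 7.52, 7.88 and 7.51 on the WT KLRG1lo arrays. The WT KLRG1hi arrays were the highest, with 8.29, 8.76 and 7.94. Loss of Id2 went with a difference of -0.62 (SE 0.20) in Bim-sufficient cells and -0.39 (SE 0.24) in Bim-deficient cells, with a mean of -0.51 (SE 0.16), or 1.42-fold lower. Without BimKO replicate 2 the value in Bim-deficient cells was -0.18. The gene of the large subunit, Rrm1, which lies on another chromosome, averaged 8.17 ± 0.03 on the Id2KO arrays and 7.80 ± 0.39 on the Id2KOBimKO arrays, against 8.08 ± 0.64 on the BimKO arrays and 7.71 ± 0.62 on the WT KLRG1lo arrays, and its groups overlapped. Of 11 tested genes of nucleotide supply, 0 passed and the median mean effect was -0.02, with Dck at 0.47 and Nme1 at 0.45. Of 14 S-phase genes, 0 passed and the median was 0.09, with Ccne2 at -0.48 and Cdc6 at -0.38.

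Klf11 encodes a zinc finger repressor of the Krüppel-like family that is induced by TGF-beta. Its signal was 7.54 and 7.24 on the Id2KO arrays and 7.50 and 7.61 on the Id2KOBimKO arrays, against 7.92 and 7.94 on the BimKO arrays and 8.06, 7.66, 8.23, 8.27 and 7.88 on the WT KLRG1lo arrays. In WT KLRG1hi cells it was 8.22, 8.18 and 7.91. The highest Id2-deficient array and the lowest WT array were close, at 7.61 and 7.66, and no array crossed over. Differences were -0.63 (SE 0.18) and -0.37 (SE 0.22) in Bim-sufficient and Bim-deficient cells, with a mean of -0.50 (SE 0.14). Among 11 tested relatives of the Krüppel-like and Sp families, 0 passed and the median was 0.12, with Klf6 at 0.32 and Klf4 at -0.29.

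Adam17 encodes the membrane protease that sheds TNF, L-selectin and the IL-6 receptor from the cell surface. Its signal was 9.42 and 9.48 on the Id2KO arrays and 9.10 and 9.05 on the Id2KOBimKO arrays, against 8.56 and 8.62 on the BimKO arrays and 8.78, 8.96, 8.19, 8.56 and 8.59 on the WT KLRG1lo arrays. WT KLRG1hi cells had 8.62, 9.24 and 9.29, a range that reached into that of the Id2-deficient arrays. The differences were 0.83 (SE 0.21) and 0.49 (SE 0.25) in Bim-sufficient and Bim-deficient cells, a mean effect of 0.66 (SE 0.16) or 1.58-fold. Of 14 tested genes of related proteases, their regulators and Adam17 substrates, 1 passed the test of the mean Id2 effect, against 0.18% of all tested genes, and the median was -0.04. That gene was Il6ra, the IL-6 receptor chain that Adam17 sheds, which averaged 8.48 ± 0.10 on the Id2KO arrays and 8.62 ± 0.07 on the Id2KOBimKO arrays, against 7.91 ± 0.25 on the BimKO arrays and 7.87 ± 0.15 on the WT KLRG1lo arrays (SD). Its mean effect was 0.66 (SE 0.12, limma adjusted p = 0.0349), and the adjusted p ran from 0.0231 to 0.353 when 1 array was left out, staying under 0.05 in 5 of 14 cases.

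Prkar2b encodes a regulatory subunit that holds protein kinase A inactive until cyclic AMP binds. Signal was 4.67 and 4.84 on the Id2KO arrays and 4.78 and 4.86 on the Id2KOBimKO arrays, against 4.95 and 5.40 on the BimKO arrays and 5.35, 5.17, 5.33, 5.43 and 5.37 on the WT KLRG1lo arrays. WT KLRG1hi cells had 5.46, 5.81 and 5.23. The 4 Id2-deficient arrays and BimKO replicate 1 lay under the level of probe sets with no gene on the same array, while the other BimKO array and all 8 WT arrays lay above it, none by more than 1 log2 unit. The size of the difference is therefore poorly measured. It was -0.58 (SE 0.18) and -0.35 (SE 0.21) in Bim-sufficient and Bim-deficient cells, with a mean of -0.46 (SE 0.14). The second value was -0.58 without BimKO replicate 1 and -0.12 without BimKO replicate 2. Of 11 tested protein kinase A subunits and anchors, 0 passed and the median was 0.01, with Akap10 at 0.32 and Prkar2a at 0.22.

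Lpin1 encodes a phosphatidate phosphatase that makes diacylglycerol. Its signal was 7.01 and 6.97 on the Id2KO arrays and 7.77 and 7.86 on the Id2KOBimKO arrays, against 8.03 and 8.98 on the BimKO arrays and 7.55, 7.74, 7.23, 7.31 and 7.72 on the WT KLRG1lo arrays. In WT KLRG1hi cells it was 7.55, 8.10 and 8.51. Each Id2-deficient pair was below its own Bim-matched arrays, but the Id2KOBimKO arrays were above all WT KLRG1lo arrays, so the joined ranges overlapped. The differences were -0.52 (SE 0.25) and -0.69 (SE 0.30) in Bim-sufficient and Bim-deficient cells, a mean of -0.61 (SE 0.20). The second value was -1.16 without BimKO replicate 1 and -0.22 without BimKO replicate 2. Of 12 tested genes of glycerolipid synthesis, 0 passed and the median was 0.19, with Agpat2 and Agpat3 at 0.38 each.

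In the fit over all 14438 genes, 1 of the 7, Rnf144a, was past an adjusted p of 0.05 in the mean Id2 effect, where 26 genes or 0.18% were called. That count was 0 without Id2KOBimKO replicate 2, and 2, with Adi1 added, without KLRG1hi replicate 1, KLRG1hi replicate 3 or WT KLRG1lo replicate 2. In Id2KO minus WT KLRG1lo it was 0 of 7 (0.111% of all genes), and 1 or 2 (Adi1, with Rnf144a in the KLRG1hi cases) without the same 3 arrays. In Id2KOBimKO minus BimKO it was 0 of 7, and limma called 0% of all genes there, although 262 had an unadjusted p under 0.05. The genes were chosen on this comparison, so nothing is read from these calls.

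How far the difference varied with Bim status is given by the interaction, (Id2KOBimKO minus BimKO) minus (Id2KO minus WT KLRG1lo). It uses the same 11 KLRG1lo arrays as the choice of genes, which favours genes with a like difference in both backgrounds, so it is a description for these genes. Over all genes limma called 0.0277% (4 genes), 0 of them among the 7, and nothing is read from that count. For Rnf144a the interaction was -0.10 (95% interval -0.74 to 0.54), and for Adi1 -0.29 (-0.86 to 0.29). It was 0.23 (-0.43 to 0.89) for Rrm2, 0.26 (-0.33 to 0.85) for Klf11 and -0.34 (-1.02 to 0.33) for Adam17. It was 0.23 (-0.35 to 0.80) for Prkar2b and -0.17 (-0.998 to 0.66) for Lpin1. The intervals are wide, and a difference between the Bim backgrounds as large as the effect itself lies inside the interval of each gene but Rnf144a.

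**Figure D2:**
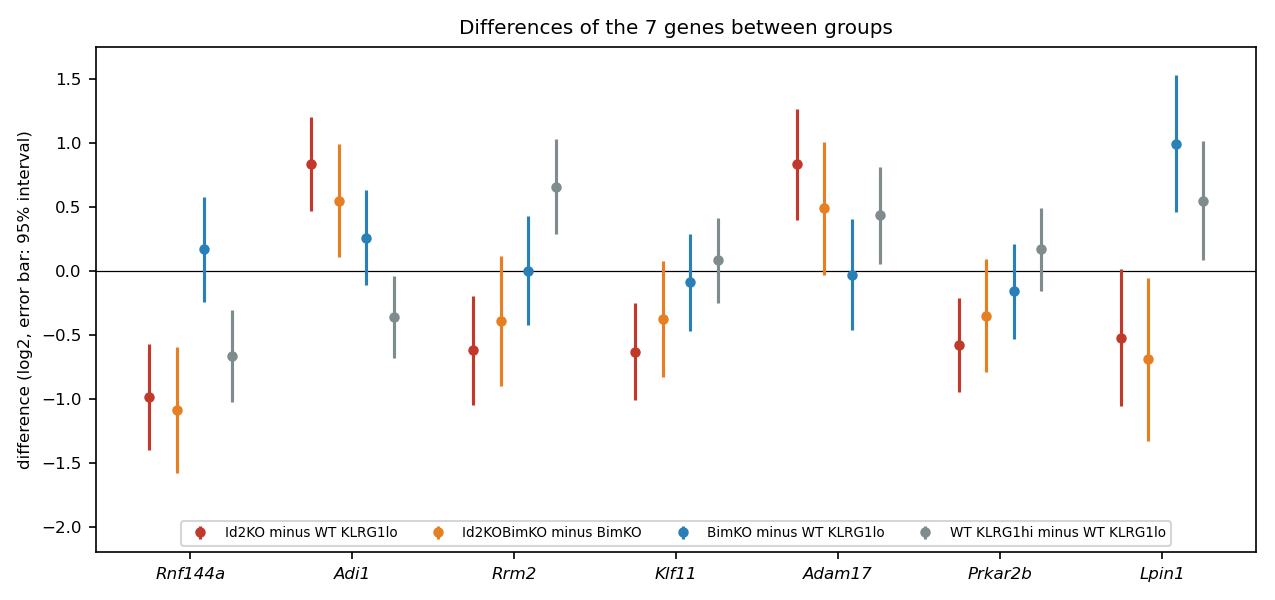
Log2 differences of the 7 genes with 95% intervals (vertical axis), for Id2KO minus WT KLRG1lo, Id2KOBimKO minus BimKO, BimKO minus WT KLRG1lo and WT KLRG1hi minus WT KLRG1lo. Both Id2 differences of each gene lie on the same side of 0, Rnf144a furthest below, and the intervals of the pair overlap for every gene.

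The wild-type KLRG1hi and KLRG1lo arrays ask whether the same genes differ between sorted populations that carry the same Id2 locus. The WT KLRG1lo arrays also served in the choice of the genes, so this comparison is not independent of it. Id2 itself had a log2 signal of 11.07 to 11.66 on the KLRG1hi arrays, a difference of 0.35 (SE 0.16, limma adjusted p = 0.682). None of the 7 passed the adjusted threshold, where 136 genes (0.942%) did, while 5 of 7 had an unadjusted p under 0.05, against 1039 of all genes (7.20%). Rnf144a differed by -0.66 in KLRG1hi cells (SE 0.17, limma adjusted p = 0.0926) and Rrm2 by 0.66 (SE 0.18, limma adjusted p = 0.108). For these 2 genes the KLRG1hi and WT KLRG1lo arrays did not overlap, 2 of 7 against 4.18% of all genes. Both passed without KLRG1hi replicate 3, where Rnf144a stood at -0.83 (limma adjusted p = 0.0240) and Rrm2 at 0.85 (limma adjusted p = 0.0215). Neither passed when any other WT array was left out. Over all fits with 1 array left out, Rnf144a ran from -0.83 to -0.51 and Rrm2 from 0.45 to 0.85. Lpin1 (0.55, SE 0.22), Adam17 (0.44, SE 0.18) and Adi1 (-0.36, SE 0.15) had limma adjusted p-values of 0.511, 0.543 and 0.575. Lpin1 stood at 0.32 without KLRG1hi replicate 3, and Adi1 at -0.21 without KLRG1hi replicate 1. Prkar2b (0.17) and Klf11 (0.08) had intervals that held 0.

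Other genes of DNA synthesis were compared in the same arrays. All 14 S-phase genes had a positive KLRG1hi minus KLRG1lo value, with a median of 0.46 against 0.00 over all genes, and 0 of 14 passed. The 11 genes of nucleotide supply had a median of 0.01. Il6ra was lower in KLRG1hi cells, with a mean of 7.25 ± 0.12 against 7.87 ± 0.15 in WT KLRG1lo cells (difference -0.62, SE 0.14, limma adjusted p = 0.0387), and stayed under 0.05 in 4 of 14 fits with 1 array left out.

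BimKO and WT KLRG1lo arrays together formed the Id2-sufficient side in the choice of the genes, which favours a small difference between them, so BimKO minus WT KLRG1lo is also a description for these genes. Over all genes limma called 0 (0%), with 998 at an unadjusted p under 0.05. Lpin1 had the largest value of the 7, at 1.00 (SE 0.25, 95% interval 0.46 to 1.53), and its BimKO arrays lay above every WT KLRG1lo array. It was the 1 gene of the 7 without overlap, against 12.6% of all genes. The Lpin1 value was 0.52 without BimKO replicate 2 and 1.47 without BimKO replicate 1. The other 6 had values between -0.16 (Prkar2b) and 0.26 (Adi1).

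The 7 genes were set beside every tested neighbour of Id2. Within 40 places on each side the table holds 80 protein-coding genes, of which 51 are named on the array and 40 were tested, 12 before and 28 after Id2. Of the 7 chosen genes 6 are among these 40, with Lpin1 further out. Of the 34 other genes, 0 were called in the mean Id2 effect (1, Taf1b, with array spread as a covariate), 3 had an unadjusted p under 0.05, and 2 had Id2-deficient arrays that did not overlap the Id2-sufficient KLRG1lo arrays (5.88%). Their mean effects had a median of 0.06 and ran from -0.41 (Taf1b) to 0.36 (Nampt), each smaller in size than that of any chosen gene. That gap in size follows from the choice of genes by their difference. The 2 non-overlapping genes, named after their values were seen, were Eipr1 (0.30), 12 places after Id2, and Myt1l (-0.39), 14 places after it.

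Close to Id2, chosen and other genes alternate. Kidins220, directly before Id2, had a mean effect of -0.18 (SE 0.18), and Cmpk2, 3 places after Id2, had 0.17. Rsad2, between Rnf144a and Cmpk2, had a mean of 0.18 that averages -0.47 for Id2KO minus WT KLRG1lo and 0.83 for Id2KOBimKO minus BimKO. Taf1b, 7 places before Id2 and a subunit of the RNA polymerase I selectivity factor, was at -0.41 (SE 0.17). Grhl1 (-0.09) and Cys1 (-0.11) lie beside Klf11 and Rrm2, and Colec11 (0.02), Rps7 (0.26) and Rnaseh1 (0.05) lie just before Adi1. For Rps7 the 2 differences were 0.67 and -0.14, and for Colec11 -0.24 and 0.28. All 9 of these genes within 10 places had overlapping arrays, where the 4 chosen genes in that stretch did not overlap. The genes were chosen on this difference, so the contrast in overlap follows from the choice and nothing is read from it.

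**Figure D3:**
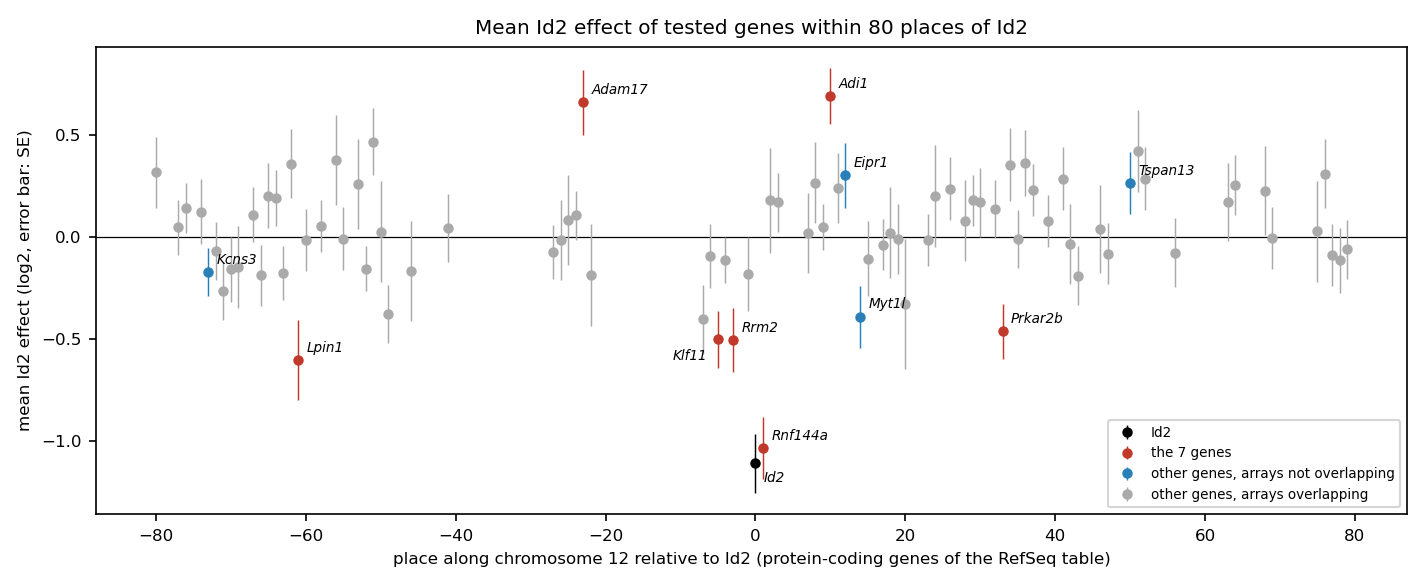
Mean Id2 effect in log2 with its SE (vertical axis) of every tested gene within 80 places of Id2, in gene order along chromosome 12 (horizontal axis). Adi1 and Adam17 lie above 0 and the other 5 chosen genes below; most other genes lie nearer to 0, and Nol10, at 0.47, is about as far from 0 as Prkar2b, at -0.46.

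By distance, the share of genes whose arrays did not overlap was 4 of 13 (30.8%) at 1 to 10 places, 2 of 8 (25%) at 11 to 20, 2 of 19 (10.5%) at 21 to 40 and 2 of 45 (4.44%) at 41 to 80. Further out on chromosome 12 it was 5 of 345 (1.45%), and on other chromosomes 336 of 13907 (2.42%). The first 3 bins hold under 20 genes each, and the chosen genes carry the first and the third. Without the 7 genes the shares were 0 of 9, 2 of 8 (25%), 0 of 17 and 2 of 44 (4.55%), so the fall with distance rests on genes picked for their difference. The 2 at 41 to 80 places, also named after their values were seen, were Kcns3 (-0.17) and Tspan13 (0.26). With Id2 itself left out, chromosome 12 ranked 3 of 20 chromosomes in this share, with 15 of 482 (3.11%), where chromosome 16 had 4.25% and chromosome X 1.30%. Without the 7 genes, a step that also lowers the share by construction, the protein-coding genes of chromosome 12 gave 9 of 423 (2.13%).

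**Figure D4:**
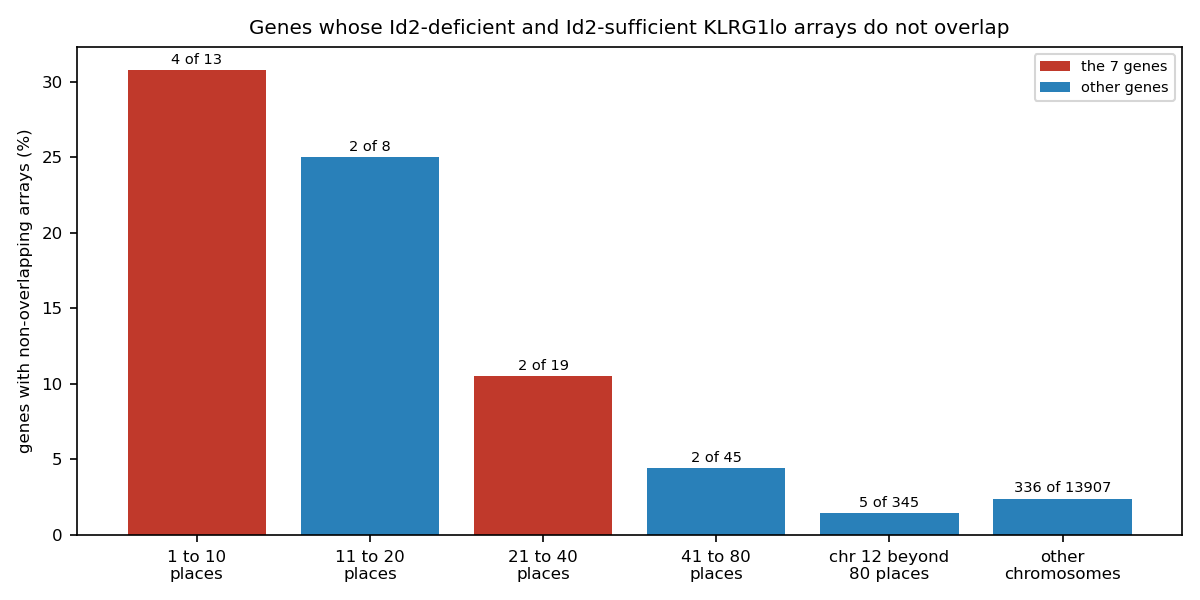
Percent of tested genes whose 4 Id2-deficient arrays do not overlap the 7 Id2-sufficient KLRG1lo arrays (vertical axis), by distance from Id2 (horizontal axis), with counts above the bars and the chosen genes in a separate colour. The bars at 1 to 10 and 21 to 40 places consist of chosen genes, and the bars at 11 to 20 and 41 to 80 of other genes.

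Over the 14 arrays the chosen genes followed different partners. As a description, with arrays that share groups and no test, Pearson's r with Id2 was 0.63 for Rnf144a, -0.81 for Adi1, 0.73 for Rrm2, 0.71 for Klf11, 0.76 for Prkar2b, 0.47 for Lpin1 and -0.36 for Adam17. Adi1 ran against Prkar2b (-0.89), Klf11 (-0.87) and Rrm2 (-0.83), while Rrm2 and Prkar2b ran together (0.88). The KLRG1lo arrays among the 14 served in the choice of the genes, which favours such values with Id2 and among the chosen genes. Prkar2b also lay close to the level of probe sets with no gene. With 1 predicted name passed over, the 2 tested genes most like Rnf144a were Taf1b (0.71), also near Id2, and Ddit3 (0.71), the stress factor CHOP. For the other 6, the leading genes were Dgka (0.95) and Ifi208 (0.95) for Adi1, Prr11 (0.94) and Plcg2 (0.93) for Rrm2, Myo15b (0.92) and Spef1 (0.91) for Klf11, Igf2r (0.96) and Fkbp5 (0.95) for Adam17, Mtfr2 (0.90) and Mir673 (0.88) for Prkar2b, and H4c9 (0.88) and Dpy19l4 (0.82) for Lpin1. Of the 20 most alike, 2 lay on chromosome 12 for Rnf144a, 1 for Adi1, 3 for Prkar2b and 0 for the other 4. For Rnf144a these were Taf1b and Id2, and for Prkar2b they were Mir673 and the chosen genes Rrm2 and Klf11. Of all 14438 tested genes, 482 lay on chromosome 12 with Id2 left out.

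Marker sums and the spread of each array were compared over the same groups. The summed linear signal of 8 CD8 T cell markers was 24204 to 28688 on the Id2KO arrays and 23002 to 24022 on the Id2KOBimKO arrays, against 18701 to 21962 on the BimKO arrays and 19360 to 23589 on the WT KLRG1lo arrays, higher without overlap in each Bim-matched pair. Single genes did not overlap in these pairs for 28.5% (Id2KO, WT) and 29.7% (Id2KOBimKO, BimKO) of all tested genes. Gzmb, 1 of the 8, ran lower, at 9.72 to 10.26 in log2 on the Id2-deficient arrays against 9.84 to 10.80 on the Id2-sufficient KLRG1lo arrays. Monocyte markers (5 of 6 on the array) summed to 156 to 170 and 164 to 269 on the Id2KO and Id2KOBimKO arrays, against 181 to 343 and 176 to 584 on the BimKO and WT KLRG1lo arrays. Neutrophil markers (5 of 5) summed to 128 to 158 and 146 to 179 on the same Id2-deficient arrays, against 166 to 306 and 160 to 453. The sums of B cell, dendritic cell and red cell precursor markers overlapped in each Bim-matched pair. CD4 and regulatory T cell markers overlapped between Id2KO and WT KLRG1lo arrays. They summed to 137 to 144 on the Id2KOBimKO arrays, against 146 to 149 on the BimKO arrays. Of the 5 monocyte markers, 4 on the Id2KO arrays, 3 on the Id2KOBimKO arrays, 3 on the BimKO arrays and 2 on the WT KLRG1lo arrays averaged at or under 5.39, the highest level of the probe sets with no gene. Of the 5 neutrophil markers, 5, 4, 2 and 2 did so in the same order of groups. The spread of log2 values (interquartile range) was 2.83 to 2.87 on the Id2KO arrays, 2.65 to 2.78 on the Id2KOBimKO arrays, 2.62 to 2.70 on the BimKO arrays and 2.46 to 2.82 on the WT KLRG1lo arrays. The monocyte, neutrophil and spread ranges of the Id2KOBimKO and BimKO arrays overlapped. The part of these measures in the differences of the 7 genes was not tested. In sorted bulk cells, fewer cells of a type and less RNA per cell cannot be told apart.

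The arrays also fell into a low and a high set by the level of probe sets with no gene. Within the low set (2 Id2-deficient and 2 Id2-sufficient KLRG1lo arrays) the Id2-deficient minus Id2-sufficient difference was -1.09 for Rnf144a, 0.78 for Adi1, -0.58 for Rrm2, -0.34 for Klf11, 0.39 for Adam17, -0.54 for Prkar2b and -0.25 for Lpin1. Within the high set (2 and 5 arrays) it was -1.02, 0.68, -0.46, -0.62, 0.76, -0.44 and -0.44 in the same gene order. All 7 signs were the same in both sets, and Lpin1 alone overlapped in each. For the other 6 genes this was fixed beforehand, since their joined arrays did not overlap, so nothing is read from it. The low set holds no BimKO array, so Bim status was not matched there.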

How the data were processed

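Processed values of 14 Affymetrix arrays, 1 colour, were used as deposited. Per the submitters' processing notes they were made with RMA, with mm9 named as the genome build; versions were not stated there. The deposited values are linear intensity (median per array 49.2 to 56.8), and their log2 was taken without an offset or further normalization. Replicates of a group correlated at 0.915 to 0.984. The platform annotation gave 1 gene to 21640 of 34760 probe sets, several to 1321 and none to 11799; symbols were updated by Entrez number for 21553 through the RefSeq table of GRCm38.p6, used for names and gene order only. The probe set with the highest mean stood for a gene. Genes were kept where at least 2 arrays had signal over that array's 40th percentile.

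A limma 3.58.1 model (R 4.3.3) with 5 group means was fitted over all 14 arrays, with 9 residual and 7.99 prior degrees of freedom and Benjamini-Hochberg adjustment over 14438 genes; the call was an adjusted p under 0.05. The script was tested on simulated data. The number of arrays limits the precision. Genes named beyond the 7 were the tested genes within 10 places of Id2, checks of the labels, the 2 genes most alike in pattern (predicted names passed over), and of each function list those that passed or else the 2 largest. The 7 genes and all lists were chosen with earlier results of these data known. Alternatives varied the filter, normalization, offset, variance model, blocks, covariate, probe set rule, window and arrays used. Deviations of same-numbered arrays from their group means correlated at -0.524 to 0.410 over 21 pairs, and those of differently numbered arrays at -0.674 to 0.652 over 54. In groups of 2 arrays the deviations mirror each other, so these values cannot settle whether replicate numbers pair the arrays.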

Additional observations from a re-analysis of the deposited data

How the results depend on the processing

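The difference of each of the 7 genes kept its sign in Id2KO minus WT KLRG1lo, Id2KOBimKO minus BimKO and the mean Id2 effect under every alternative run (536 values, 525 within 1 SD of the reported one). Many of these values repeat the reported one, because the setting or the array left out does not enter that difference. The genes were also chosen on this difference, which favours a stable sign, so nothing is read from the count. The mean Id2 effect ran from -1.27 to -0.93 for Rnf144a, 0.52 to 0.78 for Adi1, -0.61 to -0.40 for Rrm2, -0.63 to -0.33 for Klf11, 0.39 to 0.76 for Adam17, -0.58 to -0.31 for Prkar2b and -0.88 to -0.25 for Lpin1. Of the 7, those called in the mean Id2 effect numbered 1 as reported, 2 with a filter at the 60th percentile, an offset of 16, a robust fit with trend, only the groups compared or the mean over probe sets, 3 with array spread as a covariate (Adi1 and Lpin1 added), and 0 with median centring. Genes called within 40 places of Id2 gave the same counts, but with the spread covariate the 3 were Rnf144a, Adi1 and Taf1b, which is not 1 of the 7. With the replicate number as a block the count was 0, and 8 genes in all were called in place of 26. Whether the numbers pair the arrays could not be settled. Leaving out 1 array gave 0 to 2. In Id2KO minus WT KLRG1lo the count was 1 in place of 0 with quantile normalization, only the groups compared or the spread covariate, and 0 to 2 with 1 array left out. In Id2KOBimKO minus BimKO it was 1 in place of 0 with the spread covariate and 0 with 1 array left out. In WT KLRG1hi minus WT KLRG1lo it was 1 in place of 0 with quantile normalization (Rnf144a), 3 with the spread covariate (Rnf144a, Adi1 and Rrm2), and 0 to 2 with 1 array left out. The interaction and BimKO minus WT KLRG1lo gave 0 of 7 in all 26 alternatives; 5 and 11 of their 174 values each changed sign, none called, and so did 1 of 174 for WT KLRG1hi minus WT KLRG1lo. With the spread covariate the interaction of Rnf144a was 0.21. Genes called in all numbered 4 to 39 (16 as reported) in Id2KO minus WT KLRG1lo, 0 to 4 (0) in Id2KOBimKO minus BimKO, 8 to 52 (26) in the mean Id2 effect, 3 to 6 (4) in the interaction, 0 to 8 (0) in BimKO minus WT KLRG1lo and 42 to 376 (136) in WT KLRG1hi minus WT KLRG1lo. Median centring put the median of all genes in Id2KO minus WT KLRG1lo at 0.15, against 0.03 as deposited. Prkar2b did not pass the filter at the 60th percentile. The within-set values were added after seeing the data. The cause of these changes was not tested.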
